A study of Mus musculus with 38 samples.

Results

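The adult globin genes are the 4 genes Hbb-bs, Hbb-bt, Hba-a1 and Hba-a2, chosen by name and matched to the deposited tables through their Ensembl identifiers. All 4 were found among the 47729 genes of the whole marrow table and the 46679 genes of the osteoclast precursor table. RNA was sequenced from marrow of female C57BL/6J mice aged 6 to 7 weeks. The whole marrow libraries came from untreated mice (2 libraries), mice given zoledronic acid (ZA, a bisphosphonate) at 100 µg/kg (2), mice given the human cytokine G-CSF (granulocyte colony-stimulating factor, recombinant) at 50 µg/kg a day for 3 days (3), and mice given both, with G-CSF starting 2 days after ZA (2). Sorted cells of the same 4 treatments were Lin- CD115+ and are named myeloid/osteoclast progenitors in the protocol. The lineage cocktail holds TER119, an antibody to red cells and their precursors. All injections were intraperitoneal. The labels number biological replicates without saying that each was a separate animal. The p-values below set group differences against the spread between these libraries. That spread may be technical, so the p-values may not extend to animals.

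Each haemoglobin molecule is built from alpha and beta globin chains that each carry a haem group, and red cell precursors in the marrow make both kinds of chain from separate gene clusters. A red cell precursor normally holds the outputs of the clusters close to balance, because unpaired chains are harmful to it. Mouse strains differ at the beta cluster: C57BL/6 carries the "single" haplotype, whose adult genes are Hbb-bs and Hbb-bt, while other strains carry the "diffuse" haplotype with Hbb-b1 and Hbb-b2. The deposited tables list the former pair, so which haplotype a library carried cannot be read from these values.

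On GRCm38 (mm10), GENCODE vM21 places Hbb-bs (ENSMUSG00000052305) on the minus strand of chr7:103826534-103828096 and Hbb-bt (ENSMUSG00000073940) on the minus strand of chr7:103812524-103813996. Hba-a1 (ENSMUSG00000069919) lies on the plus strand of chr11:32283511-32284465 and Hba-a2 (ENSMUSG00000069917) on the plus strand of chr11:32296489-32297298. All are protein-coding. The copies of each pair are nearly alike in their coding sequence, which bears on every value given for a single copy, and the windows that hold the coding differences follow, with the differing base in capitals.
Hbb-bs: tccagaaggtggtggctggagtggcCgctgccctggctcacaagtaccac
Hbb-bt: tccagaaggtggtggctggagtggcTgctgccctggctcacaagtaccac
Hba-a1: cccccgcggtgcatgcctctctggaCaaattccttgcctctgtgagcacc
Hba-a2: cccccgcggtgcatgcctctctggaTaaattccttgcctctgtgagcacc
Counted from 1 at the first base of the start codon, Hbb-bs and Hbb-bt differed in 1 of 444 coding bases, C417T with the base of Hbb-bs first. Hba-a1 and Hba-a2 differed in 1 of 429 coding bases, C381T with the base of Hba-a1 first. Of the stretches of 31 bases in each GENCODE transcript, 66.9% of those in Hbb-bs also occurred in Hbb-bt and 59.4% of those in Hbb-bt occurred in Hbb-bs. The overlap was 71.3% for Hba-a1 and 91.0% for Hba-a2. A read that lies wholly inside a shared stretch cannot be given to a copy by its sequence, so the split within a pair rests on the noncoding ends and on how the authors' quantification divided such reads. Summed counts of a pair do not depend on that division, whereas summed TPM can, because the copies differ in the length that TPM divides by.

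The upstream sequences of the 4 genes are shown because the alpha and the beta pair changed by different amounts. They are the 120 bases before the RefSeq transcript start on GRCm38.p6, written 5′ to 3′ on the gene's strand. Capitals mark 3 motifs, each searched on both strands and none overlapping another. The first is CACCC, which factors of the Klf family bind. The second is CCAAT, printed as ATTGG where it lies on the other strand. The third is a form of the TATA box, ATATAA.
Hbb-bs: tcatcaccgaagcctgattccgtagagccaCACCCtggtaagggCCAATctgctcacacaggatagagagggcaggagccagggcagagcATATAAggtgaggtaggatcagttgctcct
Hbb-bt: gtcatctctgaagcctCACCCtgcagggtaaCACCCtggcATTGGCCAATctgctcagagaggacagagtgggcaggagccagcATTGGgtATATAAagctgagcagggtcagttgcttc
Hba-a1: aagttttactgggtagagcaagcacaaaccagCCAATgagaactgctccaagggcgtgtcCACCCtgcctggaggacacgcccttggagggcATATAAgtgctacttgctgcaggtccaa
Hba-a2: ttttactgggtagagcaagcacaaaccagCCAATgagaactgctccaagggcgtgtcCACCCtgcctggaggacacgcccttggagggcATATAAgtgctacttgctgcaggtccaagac
The windows lie at chr7:103827929-103828048 for Hbb-bs, chr7:103813924-103814043 for Hbb-bt, chr11:32283552-32283671 for Hba-a1 and chr11:32296372-32296491 for Hba-a2. GENCODE places the gene starts further upstream than RefSeq. The Hbb-bs and Hba-a1 windows therefore lie inside the GENCODE genes, and those of Hbb-bt and Hba-a2 overlap them. All 4 windows held each of the 3 motifs, and none held GATAA, the letters GATA factors bind, on either strand. CACCC occurs in 31.7% of 32851 RefSeq promoter windows of this length, CCAAT in 21.3%, ATATAA in 4.50% and GATAA in 10.5%. Upstream sequences were compared without gaps, at the best single shift. The alpha genes shared all of 247 upstream bases once a sequence was shifted by 3 bases from its annotated start, whereas the beta genes matched at 51.0% of 249 positions. An inserted or missing base puts all positions beyond it out of step, so that percentage can understate likeness. In Hbb-bs and Hbb-bt, CACCC began at -90 and -89, CCAAT at -76 and -75 and ATATAA at -30 and -29, besides further motif copies in Hbb-bt. These matches describe the letters in the windows and say nothing of what is bound there.

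Before the results, several features of the libraries need stating. Total estimated counts, in units of M (mega), were 6.24 to 16.2 in marrow (median 8.44) and 21.0 to 33.2 in the 8 precursor libraries of sequencing run 1 (median 27.4). Replicate 1 of untreated marrow stood apart: small RNA genes took 39.1% of its TPM (a length-corrected share of the library) against 6.46 to 12.3% in the other 8. In marrow, 50 genes were at 1 TPM or more in all 5 libraries with G-CSF and at 0.1 TPM or less in the 4 without it, and 11 showed the reverse. What those genes reflect was not tested, and anything else that divides these 5 libraries from the other 4 cannot be told apart from G-CSF. The 3 marrow libraries of run 1 in the precursor table are untreated 2, G-CSF 2 and ZA 2 of the marrow table. In run 2 the globin share went against the labels: libraries labelled precursor held 0.0806 to 48.9% of their TPM in the 4 genes, and those labelled marrow 0.230, 0.135 and 38.8%. Run 2 therefore enters only the alternatives. That choice rests on the globin values themselves, so low globin in the run 1 precursors is not independent evidence for their label.

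Marrow RNA was dominated by these transcripts. In TPM, the 4 genes took 24.8 and 40.3% of untreated marrow libraries, 35.5 and 32.5% with ZA, 29.7, 28.7 and 27.7% with G-CSF, and 23.5 and 22.0% with both agents. In 8 of the 9 libraries a globin gene was the most abundant of all genes; in untreated replicate 1 the first globin gene ranked 2. The ZA libraries lay between the untreated pair, whose lower library was replicate 1, rich in small RNA, and the combined libraries were the lowest.

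Hbb-bs encodes an adult beta chain and was the most abundant beta transcript in every library. Its TPM were 127274 and 197376 in untreated marrow, 153591 and 144718 with ZA, 117211, 116786 and 90100 with G-CSF, and 75305 and 78623 with both. All 5 libraries with G-CSF lay below all 4 without it. Of 14737 genes tested, 1.26% were lower without overlap in this way on the TPM scale. The group order was untreated, ZA, G-CSF, combined, with means of 162325, 149154, 108032 and 76964 TPM. Untreated and ZA overlapped, and the other neighbours in that order did not.

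Hbb-bt, the minor beta copy, was at 10798 and 16053 TPM in untreated marrow, 16449 and 13160 with ZA, 11432, 12145 and 11982 with G-CSF, and 8564 and 7754 with both. The combined libraries were the lowest 2 of the 9, while the libraries with G-CSF alone fell between the untreated pair. The lower of that pair was replicate 1, the library rich in small RNA.

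Hba-a2 was the more abundant alpha transcript. It stood at 87834 and 154810 TPM in untreated marrow, 148370 and 136513 with ZA, 131601, 120944 and 137009 with G-CSF, and 122026 and 107087 with both. All treated libraries lay between the untreated pair in TPM, so the treatment groups cannot be ordered beyond the spread of the untreated group on this scale. The lower of that pair was replicate 1, where small RNA genes took 39.1% of TPM against 6.46 to 12.3% in the other libraries. TPM sum to a fixed total, so that share lowers the TPM of all its other genes.

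Hba-a1 encodes the same kind of alpha chain at a lower level. Its TPM were 21728 and 34933 in untreated marrow, 36634 and 30499 with ZA, 36867, 37468 and 37976 with G-CSF, and 28819 and 26602 with both. The libraries with G-CSF alone were the highest 3 of the 9, with a spread of 37437 ± 555 TPM (SD, n = 3). The group order was G-CSF, ZA, untreated, combined, with means of 37437, 33566, 28330 and 27711 TPM. The place of the untreated group depends on replicate 1, at 21728 TPM, the library rich in small RNA. The groups with G-CSF alone and with ZA did not overlap, though their nearest libraries were 36867 and 36634 TPM, and the untreated pair overlapped both neighbours.

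**Figure D1:**
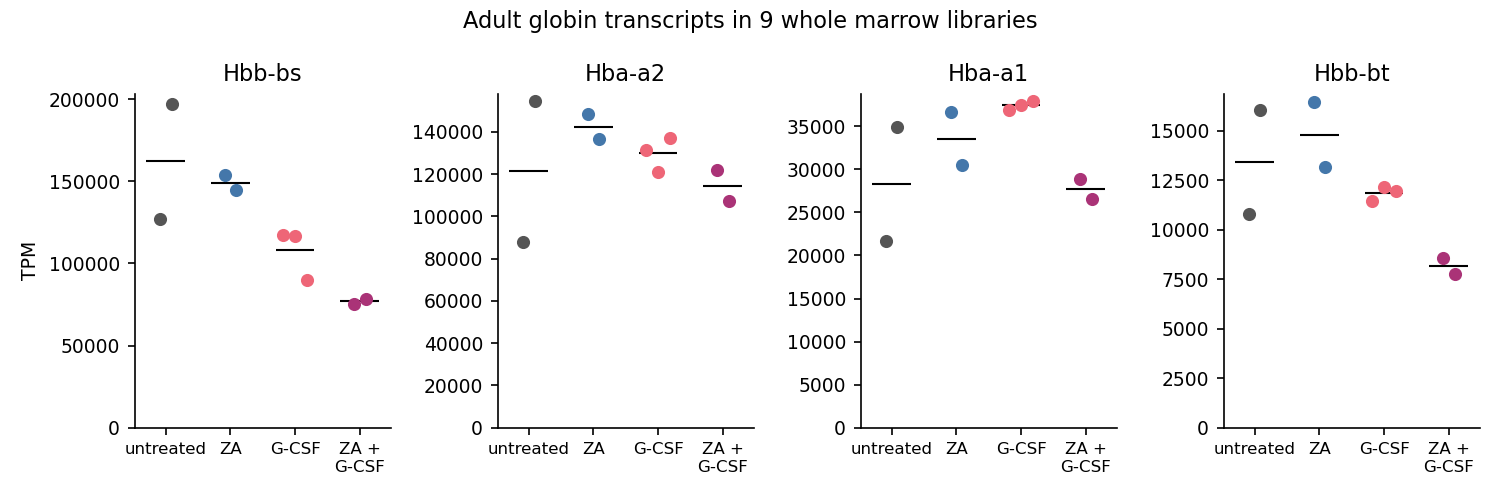
TPM (vertical axes starting at 0) of the 4 adult globin genes in 9 whole marrow libraries by treatment; points are libraries and bars are group means. Hbb-bs steps down from untreated to combined treatment, from a mean of 162325 to 76964 TPM, while Hba-a1 is highest with G-CSF alone.

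The balance between chains shifted with G-CSF. The alpha to beta ratio (TPM of both alpha genes over TPM of both beta genes) was 0.794 and 0.889 in untreated marrow, 1.09 and 1.06 with ZA, 1.31, 1.23 and 1.71 with G-CSF, and 1.80 and 1.55 with both. Every library with G-CSF was above every library without it. The mean log2 ratio was 0.59 ± 0.24 (SD, n = 5) with G-CSF and -0.08 ± 0.22 (SD, n = 4) without. The difference of 0.66 had p = 0.0159 in a two-sided exact permutation test, the smallest p that 5 against 4 allows, and 0.0635 after Benjamini-Hochberg adjustment over 4 ratio measures, which misses 0.05. On estimated counts in place of TPM the difference was 0.64, with the same unadjusted p of 0.0159 in the same exact test. Its adjusted p was 0.0317, lower only because the globin share on counts also reached the smallest p. The ratio result was thus no stronger on counts. Both untreated libraries, including replicate 1, had more beta than alpha, and both ZA libraries had slightly more alpha than beta. That difference between ZA and untreated was not tested.

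The split within each pair moved less. Hbb-bt made up 7.82 and 7.52% of beta TPM in untreated marrow, 9.67 and 8.34% with ZA, 8.89, 9.42 and 11.7% with G-CSF, and 10.2 and 8.98% with both. The means were 9.85 ± 1.18% (SD, n = 5) with and 8.34 ± 0.952% (SD, n = 4) without G-CSF, with overlap (exact permutation p = 0.0794, adjusted 0.0952). Hba-a2 made up 76.3 to 80.9% of alpha TPM with G-CSF and 80.2 to 81.7% without (means 78.8 ± 1.79% and 80.9 ± 0.857%, SD, n = 5 and 4, exact permutation p = 0.0635, adjusted 0.0952). The 3 libraries with G-CSF alone held the 3 lowest Hba-a2 shares, 78.1, 76.3 and 78.3%, and the combined libraries, at 80.9 and 80.1%, lay beside the lowest of those without G-CSF. These are quantities of near-identical copies and carry the uncertainty of read division described above.

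The share of the whole library depended on what it was a share of. As a percentage of all TPM, the 4 genes took 26.3 ± 3.39% (SD, n = 5) with and 33.3 ± 6.52% (SD, n = 4) without G-CSF, with overlap (exact permutation p = 0.0952, adjusted 0.0952). When small RNA, ribosomal RNA and mitochondrial genes were left out of the total, the share was 41.9 and 44.8% in untreated marrow, 43.2 and 39.6% with ZA, 33.7, 33.0 and 33.2% with G-CSF, and 28.2 and 26.0% with both. The groups with and without G-CSF then did not overlap, at 30.8 ± 3.49% (SD, n = 5) and 42.4 ± 2.22% (SD, n = 4). The exact permutation test gave p = 0.0159, or 0.0317 adjusted with this share in place of the plain one among the 4 measures. In bulk marrow, fewer red cell precursors and less globin RNA in each of them cannot be told apart.

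**Figure D2:**
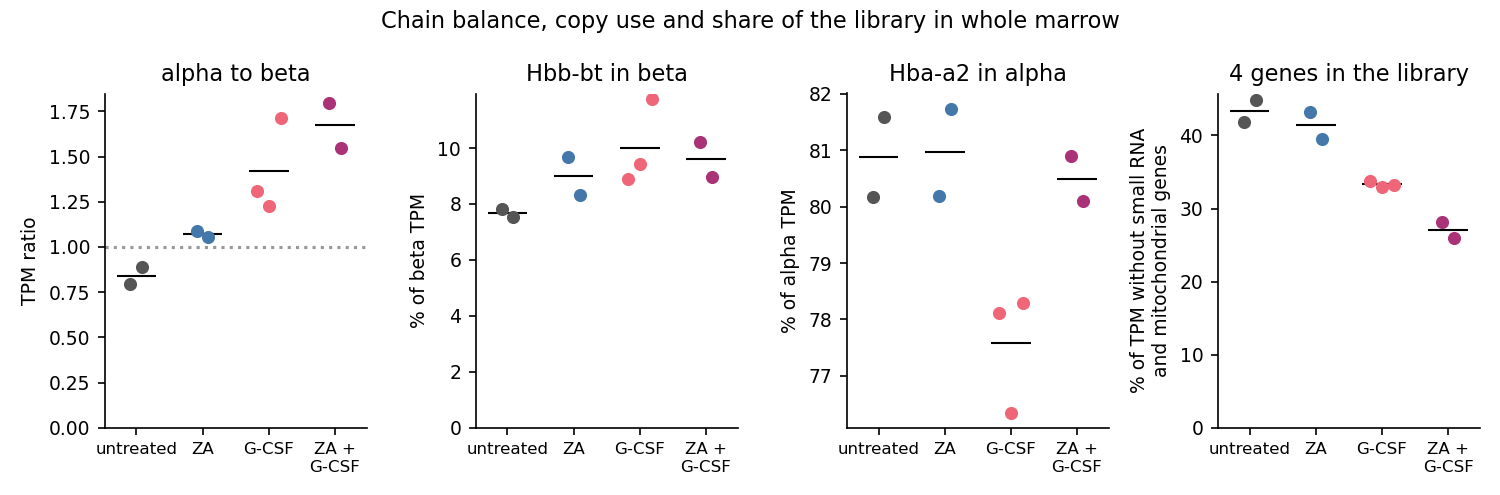
Alpha to beta TPM ratio (dotted line at 1), Hbb-bt percentage of beta TPM, Hba-a2 percentage of alpha TPM (axis not starting at 0) and percentage of TPM in the 4 genes without small RNA and mitochondrial genes, by treatment in 9 marrow libraries; points are libraries and bars are means. The ratio lies between 0.794 and 1.09 without G-CSF and between 1.23 and 1.80 with it, and the share lies between 39.6 and 44.8% without it and between 26.0 and 33.7% with it.

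Counts were compared with edgeR's quasi-likelihood test after TMM scaling, which sets libraries on a common scale through the bulk of the genes, with Benjamini-Hochberg adjustment over 14737 genes. Both beta genes fell with G-CSF against untreated. Hbb-bs was 2.67-fold lower (log2 change -1.42 ± 0.24 SE, edgeR adjusted p = 0.00628) and Hbb-bt 2.05-fold lower (-1.04 ± 0.22, adjusted p = 0.0163). Hba-a2 passed narrowly at -0.71 ± 0.19 (edgeR adjusted p = 0.0431) and lost its call whichever of the 9 libraries was left out (0.0524 to 0.225). Hba-a1 was at -0.43 ± 0.20 (edgeR adjusted p = 0.190). With the copies summed before the fit, the alpha pair was at -0.66 ± 0.19 and not called (edgeR adjusted p = 0.0552). The beta pair was at -1.36 ± 0.23 (0.00652). Of all genes tested, 11.8% were called in this comparison and 6.91% were called lower. The call of Hbb-bt was lost without untreated replicate 1 (-0.69, adjusted p = 0.106) and without G-CSF replicate 2 (-1.05, 0.0558).

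With ZA alone none of the 4 genes was called by edgeR, against 0.0339% of all genes. Hbb-bs was at -0.56, Hbb-bt at -0.31, Hba-a1 at -0.18 and Hba-a2 at -0.17 on the log2 scale, with adjusted p from 0.541 to 0.822. None of the 4 had an unadjusted edgeR p under 0.05, and neither DESeq2 nor limma called any.

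All 4 genes fell with combined treatment against untreated. Hbb-bs was 4.83-fold lower (-2.27 ± 0.28, edgeR adjusted p = 0.00175) and Hbb-bt 3.79-fold lower (-1.92 ± 0.25, 0.00250). Hba-a1 was 2.32-fold lower (-1.21 ± 0.23, edgeR adjusted p = 0.0142) and Hba-a2 2.35-fold lower (-1.24 ± 0.22, 0.0109). Across all genes 7.72% were called, 4.55% lower. Both alpha calls were lost without combined replicate 1 (Hba-a1 0.0799, Hba-a2 0.0542), without combined replicate 3 (0.110 and 0.0933) and without untreated replicate 1 (0.0791 and 0.0663), with log2 changes from -0.93 to -1.39.

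The combined group was also set against each single agent. Against ZA all 4 genes fell: the log2 change was -1.71 for Hbb-bs, -1.61 for Hbb-bt, -1.03 for Hba-a1 and -1.06 for Hba-a2 (edgeR adjusted p = 0.00798, 0.00674, 0.0364 and 0.0269). Here 4.33% of all genes were called, 2.46% lower. Leaving out combined replicate 3 or ZA replicate 2 left none of the 4 called, combined replicate 1 left 1, G-CSF replicate 2 left 2 and G-CSF replicate 1 left 3. Against G-CSF none of the 4 was called by edgeR, at -0.85, -0.88, -0.78 and -0.53 in the same order (adjusted p = 0.324, 0.276, 0.288 and 0.421), where 0.00679% of all genes were called. All 4 had an unadjusted edgeR p under 0.05, limma called none, and DESeq2 called 3 (Hbb-bs, Hbb-bt and Hba-a1). The departure of the combined group from the sum of the single agents, a test added after the data were seen, was -0.29 ± 0.36 for Hbb-bs, -0.58 ± 0.33 for Hbb-bt, -0.60 ± 0.30 for Hba-a1 and -0.35 ± 0.29 for Hba-a2. None was called by edgeR (adjusted p from 0.469 to 0.767).

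With all 5 libraries given G-CSF set against the 4 without, edgeR called all 4 genes lower, where 14.7% of all genes were called and 8.27% lower. Hbb-bs was 2.95-fold lower (-1.56 ± 0.18, edgeR adjusted p = 0.000567) and Hbb-bt 2.51-fold lower (-1.33 ± 0.17, 0.000846). Hba-a2 was 1.85-fold lower (-0.89 ± 0.14, edgeR adjusted p = 0.00368) and Hba-a1 1.66-fold lower (-0.73 ± 0.15, 0.0122). Summing each pair before the fit removed the question of copies: beta changed by -1.53 ± 0.18 (edgeR adjusted p = 0.000539) and alpha by -0.86 ± 0.14 (0.00440). Without combined replicate 3 the call of Hba-a1 was lost (-0.68, adjusted p = 0.0586).

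The direction of the alpha genes depended on the scale. On log2(TPM + 1), tested with limma, the median of all genes was 0.53 higher with G-CSF than without, 0.52 higher for G-CSF against untreated and 0.79 higher for combined against untreated. On that scale, with against without G-CSF, Hba-a1 was at 0.09 and Hba-a2 at -0.08 (limma adjusted p = 0.743 and 0.755). Hbb-bs was at -0.76 and still called (limma adjusted p = 0.0125), and Hbb-bt was at -0.50 (0.0645). Relative to the median gene the same values were -1.29 for Hbb-bs, -1.03 for Hbb-bt, -0.44 for Hba-a1 and -0.61 for Hba-a2. For G-CSF against untreated, Hba-a1 was at 0.44 and Hba-a2 at 0.15 on the TPM scale, above 0, against -0.08 and -0.36 relative to the median gene. The change of each beta gene was below that of each alpha gene under both scalings, which is what the ratio above measures within each library.

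**Figure D3:**
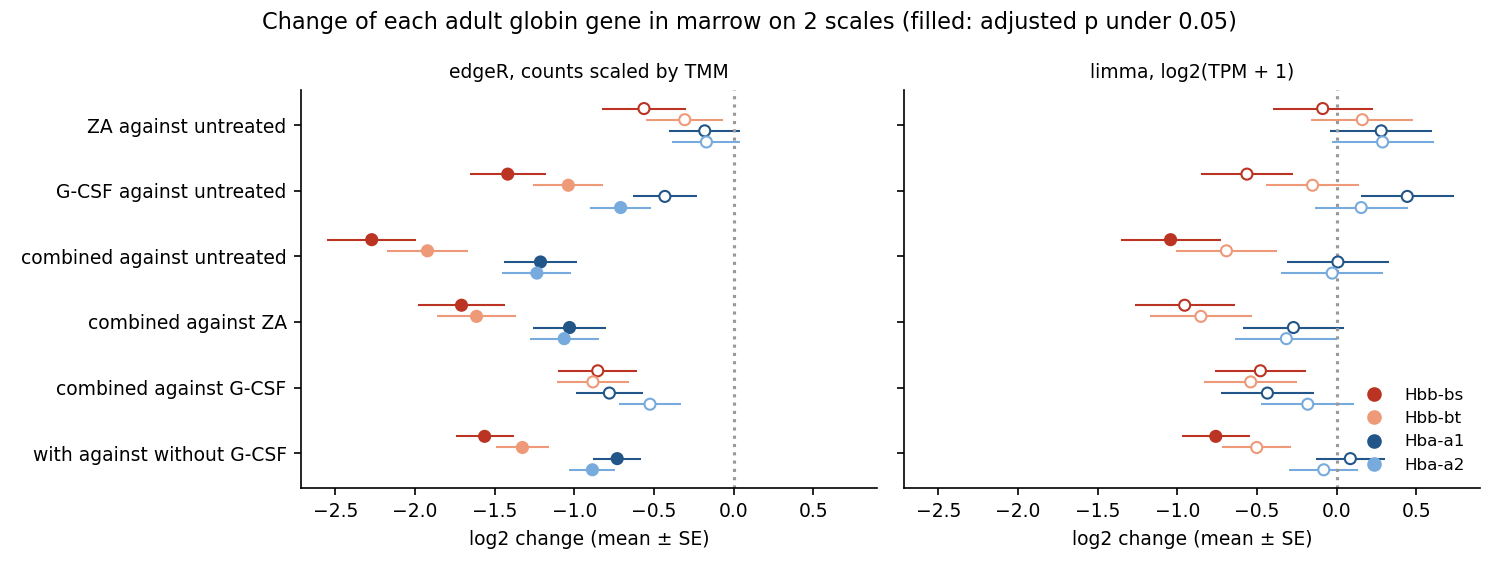
Log2 change ± SE of each adult globin gene in 6 marrow comparisons, by edgeR on TMM-scaled counts (left) and by limma on log2(TPM + 1) (right); filled points have an adjusted p under 0.05. Beta genes lie to the left of alpha genes in the comparisons with G-CSF on both scales, and alpha genes lie between -0.44 and 0.44 on the TPM scale.

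Other globin genes were rare beside the adult 4. Of 8 embryonic, fetal or theta globin genes, 3 had enough counts to test in marrow. All 3 were called lower with G-CSF against without, where 14.7% of all genes were called and 8.27% lower. They were Hbq1a at -2.29 ± 0.31 (edgeR adjusted p = 0.00133), Hbb-bh1, an embryonic beta-like gene, at -2.17 ± 0.51 (0.0214), and Hbq1b at -0.72 ± 0.18 (0.0253). Their TPM in the 9 libraries were 2.26 to 14.7 for Hbq1a, 0.284 to 3.18 for Hbb-bh1 and 36.5 to 62.7 for Hbq1b. On the TPM scale Hbq1a and Hbq1b overlapped between libraries with and without G-CSF, and Hbb-bh1 did not. Hbb-bh2 was at 0 in every marrow library.

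Genes that supply haem and iron to the globin chains moved in part with them. Of 14 tested, 7 were called lower and 2 higher with G-CSF, where 14.7% of all genes were called and 8.27% lower, and the median was -0.54 where that of all genes was near 0. Cpox, an enzyme of haem synthesis, was at -1.39 ± 0.15 (edgeR adjusted p = 0.000439), and Alas2, the first enzyme of haem synthesis in red cell precursors, at -0.87 ± 0.15 (0.00451). Alad, the second enzyme of that pathway, rose at 0.90 ± 0.14 (edgeR adjusted p = 0.00266), and so did Steap3, an iron reductase, at 0.85 ± 0.15 (0.00452). Enzymes of the same pathway therefore changed in opposite directions.

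Red cell membrane genes had 6 of 15 called lower and 1 higher (8.27% of all genes lower), with a median of -0.45. Slc4a1, the band 3 anion exchanger, was at -1.80 ± 0.26 (edgeR adjusted p = 0.00214) and Epb41, protein 4.1 of the membrane skeleton, at -1.34 ± 0.11 (7.64e-05). Kel was at -0.11 (edgeR adjusted p = 0.786). Slc4a1 varied widely between the untreated libraries, at 352 and 1245 TPM.

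Enzymes and proteins of late red cell precursors and reticulocytes had 7 of 12 called lower and 1 higher (8.27% of all genes lower), with a median of -0.81. Bpgm, which makes the 2,3-bisphosphoglycerate that lowers the oxygen affinity of haemoglobin, was at -1.50 ± 0.11 (edgeR adjusted p = 3.78e-05). Trim58, a ubiquitin ligase of late erythroblasts, was at -1.42 ± 0.18 (0.000963). Car1, a carbonic anhydrase, rose at 0.84 ± 0.12 (edgeR adjusted p = 0.00174), and Alox15 was at -0.06 (0.903).

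Erythroid regulators had 2 of 12 called lower and 1 higher, with a median of -0.07, and a share this near the 14.7% of all genes called is no result about the list. Bcl11a, a repressor of embryonic and fetal globin genes, rose at 0.47 ± 0.13 (edgeR adjusted p = 0.0361), and Ldb1, a cofactor of enhancer looping, was at 0.29 (0.194). Zfpm1, the GATA1 cofactor, was at -0.62 (edgeR adjusted p = 0.0715) and Sox6 at -0.55 (0.362). The 2 called lower were Lmo2 and Nfe2, at -0.54 (0.0301) and -0.49 (0.0240).

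**Figure D4:**
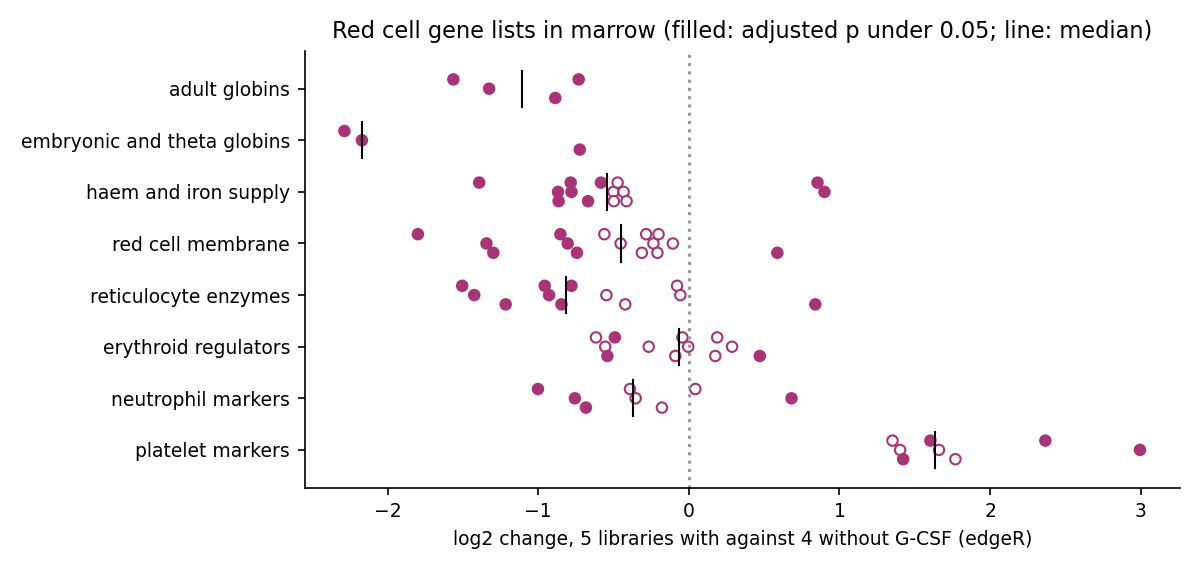
Log2 change with against without G-CSF in marrow (edgeR, 5 against 4 libraries) of each tested gene by list; filled points have an adjusted p under 0.05 and vertical lines are list medians. The medians are -1.11 for adult globins, -0.81 for reticulocyte enzymes, -0.54 for haem and iron supply, -0.45 for the red cell membrane and -0.07 for regulators.

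Platelet, neutrophil, B cell and macrophage markers were each summed in TPM. The median of all genes on log2(TPM + 1) was 0.53 higher with G-CSF than without, so higher sums partly follow that shift. Sums and edgeR calls, which use TMM scaling, can therefore point in different directions. Of 14737 genes tested by edgeR with against without G-CSF, 14.7% were called, 942 higher and 1219 lower, and the counts below stand beside that share. Platelet markers had 4 of 8 called higher with G-CSF, with summed TPM of 1167 to 1785 with and 79.7 to 587 without it. Neutrophil markers had 1 of 8 called higher and 3 lower, with sums of 39080 to 50900.5 and 20254 to 46869 TPM. B cell markers had none of 7 called, at 284 to 583 and 155 to 290 TPM. Markers of haem-clearing macrophages had 1 of 8 called higher and 2 lower, at 263 to 344 and 145 to 266 TPM. No gene of these 4 lists was at 0 in all marrow libraries. The lowest sums of the neutrophil, B cell and macrophage lists were those of untreated replicate 1, the library rich in small RNA. The part of these markers in the globin result was not tested.

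Globin RNA was far lower in the sorted libraries of run 1 than in marrow. In the 8 run 1 precursor libraries the 4 genes took 0.265% of TPM in the untreated library, 0.344% with ZA, 0.0833, 0.142 and 0.0339% with G-CSF, and 0.0825, 0.167 and 0.999% with both. Against the 3 marrow libraries of the same run and table, 5 precursor libraries of the same treatments were lower for all 4 genes in edgeR with treatment as a covariate. Of all genes 41.7% were called there, 22.4% lower. Hbb-bs was at -8.31 ± 0.61 (edgeR adjusted p = 9.81e-05), Hbb-bt at -8.34 ± 0.59 (9.45e-05), Hba-a1 at -8.55 ± 0.64 (0.000135) and Hba-a2 at -8.49 ± 0.61 (8.97e-05), or 318- to 375-fold. The 4 estimates differed by less than their standard errors. Run 2 libraries of the same treatments reversed the direction, at 1.93 to 2.32 over the 4 genes, with none of them called by edgeR.

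Other red cell genes were lower in the sorted libraries, and so were most listed markers of other lineages, where 22.4% of all genes were called lower. Neutrophil markers had 8 of 8 called lower (median -6.45), B cell markers 7 of 7 (-6.26), platelet markers 8 of 8 (-5.69) and macrophage markers 7 of 8 (-5.77). A list of 8 lineage depletion markers, in part the same genes, had 6 called lower and 1 higher. Ly6c2 of that list stood at 1248 to 2704 TPM in run 1 precursors and 64.4 to 383 TPM in the marrow libraries compared. All 15 membrane genes tested fell, with a median of -7.39. All 14 genes of haem and iron supply fell, with Alas2 at -8.59 ± 0.64 (edgeR adjusted p = 0.000138), and all 12 reticulocyte genes fell. Among regulators 10 of 12 fell, with Klf1, an activator of beta globin, at -8.29 ± 0.39 (8.83e-06 by edgeR, adjusted). Of 8 precursor markers 6 rose, and Csf1r, which encodes CD115, stood at 43.3 to 77.9 TPM in precursors and 9.05 to 13.4 TPM in those marrow libraries. The sorted libraries thus carried the marker used to sort them.

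In precursors the split within each pair was near that of marrow for the treatments they shared in run 1. The alpha to beta ratio was 0.958 in the untreated library, 0.890 with ZA, 1.14, 0.947 and 0.930 with G-CSF, and 0.862, 0.906 and 0.957 with both. Hbb-bt made up 6.85 to 9.40% of beta TPM over the 8 libraries and Hba-a2 72.0 to 82.5% of alpha TPM. In 5 precursor libraries of the treatments shared with marrow, the mean Hbb-bt share was 8.83% against 8.87% in the 3 marrow libraries, and the mean Hba-a2 share 79.1% against 79.4%. The mean log2 alpha to beta ratio was -0.04 in those 5 and 0.08 in those 3. Libraries with G-CSF were a larger part of the former, so these means mix treatments unequally. With G-CSF alone the ratio was 1.31, 1.23 and 1.71 in the marrow libraries of that group, all above the precursor values. The untreated precursor library was above untreated marrow (0.794 and 0.889), and the ZA precursor library was below ZA marrow (1.09 and 1.06). With combined treatment, which that comparison leaves out, the ratio was 1.80 and 1.55 in marrow against 0.862 to 0.957 in precursors, and the ranges did not overlap. Between the precursor groups, both given G-CSF, the mean log2 ratio was -0.14 ± 0.08 with both agents and 0.00 ± 0.16 with G-CSF alone (SD, n = 3 each, exact permutation p = 0.3, where 3 against 3 allows no p below 0.1). The ratio with against without G-CSF was not tested in precursors, nor was its difference from marrow.

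Treatment effects on globin in precursors were not resolved. Hbb-bs stood at 1227 TPM in the untreated library, 1660.5 with ZA, 352, 672 and 161 with G-CSF, and 413, 810 and 4672 with both. Combined replicate 3 was the highest of the 8 for every one of the 4 genes, at 435 TPM for Hbb-bt, 1369 for Hba-a1 and 3517 for Hba-a2. Combined against G-CSF gave 2.48 for Hbb-bs, 2.43 for Hbb-bt, 2.77 for Hba-a1 and 2.28 for Hba-a2 on the log2 scale (edgeR adjusted p from 0.724 to 0.738). Without combined replicate 3 these were 0.77, 0.52, 0.68 and 0.56. Of 18779 genes tested, edgeR called 0%, with 1306 at an unadjusted p under 0.05; DESeq2 called 62 genes, none of them a globin, and limma called 0.

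Across the 6 precursor libraries with and the 2 without G-CSF, the changes were -0.49 for Hbb-bs, -0.61 for Hbb-bt, -0.21 for Hba-a1 and -0.49 for Hba-a2 (edgeR adjusted p = 1.00 for each), where edgeR called 0% of genes, with 682 at an unadjusted p under 0.05, DESeq2 called 25 and limma 37, none of them a globin. Of the 6 libraries with G-CSF, 5 were below both libraries without it for Hbb-bs and combined replicate 3 was above both. That library also had the highest Alas2, at 25.5 TPM against 0.603 to 7.80 in the other 7. Its Slc4a1, at 9.63 TPM, lay within the range of the others (0.595 to 22.2); this gene was chosen here after its values were seen. How far red cell RNA carried through the sort accounts for the globin values of each precursor library was not tested.

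**Figure D5:**
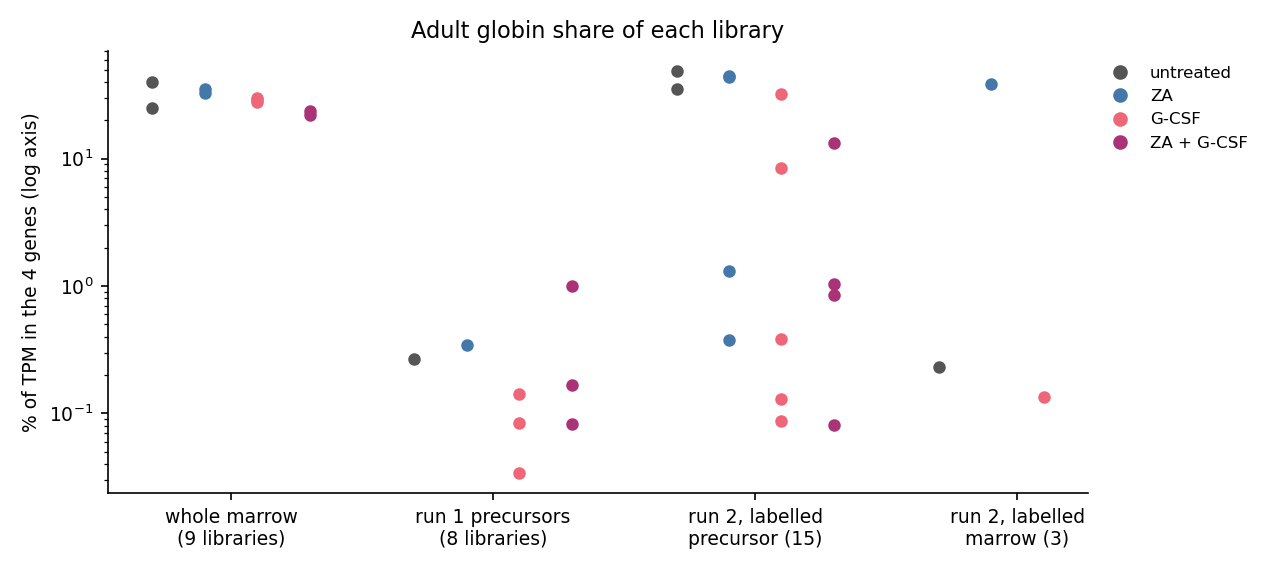
Percentage of TPM in the 4 adult globin genes (log axis) in each library, by tissue label, run and treatment. Marrow libraries lie at 22.0 to 40.3%, run 1 precursors at 0.0339 to 0.999%, and run 2 libraries labelled precursor run from 0.0806 to 48.9%, some of them between those ranges.

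The genes whose levels in marrow were most like the mean of the 4 globins were picked by Pearson correlation of log2(TPM + 1) over the 9 libraries, among 4402 genes averaging at least 10 TPM. They were Ifi27 (r = 0.923), Clec4d (0.894), Gabarapl2 (0.892), Pycard (0.885) and Ccl6 (0.880). Among the members themselves, r was 0.887 between Hbb-bs and Hbb-bt and 0.830 between Hba-a1 and Hba-a2. It was 0.232 between Hbb-bs and Hba-a1, 0.438 between Hbb-bs and Hba-a2, 0.554 between Hbb-bt and Hba-a1 and 0.671 between Hbb-bt and Hba-a2. The copies of a pair thus followed each other more closely than genes of different pairs, with 9 points that share the library total, treatment groups and, within a pair, reads.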

How the data were processed

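Total RNA went through an Illumina library kit of New England BioLabs, per the labels' protocols, which do not state strand. The submitters' processing notes name Salmon, DESeq2 1.16.1 and mm10; the annotation release is not given in the sources used here. The authors deposited estimated counts (not whole numbers, unscaled between libraries) and TPM per gene. Symbols and coordinates came from GENCODE vM21; 98.9% of marrow and 99.0% of precursor identifiers matched. Upstream sequences came from RefSeq (GRCm38.p6), in which all 4 genes matched. No column was without a sample.

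Rounded estimated counts entered edgeR 4.0.16 (R 4.3.3) (filterByExpr with a minimum count of 10 and total of 15, TMM, robust quasi-likelihood, Benjamini-Hochberg at 0.05), with all groups of a tissue in a fit; SEs were derived from the test statistic. limma 3.58.1 on log2(TPM + 1) and DESeq2 1.42.0 were alternatives, besides no filter, other scalings, summed pairs, a replicate block, run 2 libraries and leaving out each library. Ratios, 1 value a library, used exact permutation tests (scipy 1.17.1, Python 3.11.15). Zero or low counts carry counting error besides other variation between libraries. On simulated counts for 14737 genes of the G-CSF against untreated comparison, 51.0% of genes with a true log2 change of -2 and 17.4% of those at -1 were called. Near-identical copies are uncertain singly. The members and gene lists were chosen with earlier results of these data known. Named genes were the 4 members and, for each other list, the 2 largest and 2 smallest log2 changes in a comparison; some are not reported here, and others named are given as checks of the sort or were chosen after their values were seen. Likeness used genes of at least 10 TPM on average.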

Additional observations from a re-analysis of the deposited data

Results flagged for a closer look

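In the 6 run 1 precursor libraries with G-CSF, combined replicate 3 stood far above the others for all 4 genes by Dixon's test: 4672 TPM for Hbb-bs, 435 for Hbb-bt, 1369 for Hba-a1 and 3517 for Hba-a2, with 0.999% of its TPM in the 4 genes. In the same 6 libraries G-CSF replicate 1 stood above the others for the log2 alpha to beta ratio, at 0.19. These are 6 of 24 sets tested, and chance alone marks about 1 set in 20; the 5 marks on combined replicate 3 share 1 library and are not independent.

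Run 2 was outside the comparisons above, and 12 of its 15 libraries labelled precursor held more globin than the untreated run 1 precursor library (0.265% of TPM). Untreated replicates 2 and 7 held 48.9 and 35.5%. ZA replicates 5, 6, 7 and 8 held 43.9, 1.30, 44.5 and 0.379%. G-CSF replicates 1, 2 and 3 held 8.39, 32.5 and 0.384%. Combined replicates 1, 3 and 5 held 0.853, 13.2 and 1.04%.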

How the results depend on the processing

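Leaving out small RNA and mitochondrial genes, an alternative chosen after seeing the data, or scaling by the total without globin changed no call of the 4 genes. On the TPM scale (limma) the direction reversed for Hba-a1 (0.44) and Hba-a2 (0.15) in G-CSF against untreated, for Hbb-bt (0.16), Hba-a1 (0.28) and Hba-a2 (0.29) in ZA against untreated, and for Hba-a1 in combined against untreated (0.0072) and with against without G-CSF (0.085); the cause was not tested beyond the shift of all genes given above. Members called then numbered 0 for G-CSF, 1 for combined, 0 for combined against ZA and 1 for with against without G-CSF. In combined against G-CSF, DESeq2 and no filter called 3 members. In combined against ZA, a fit of only the groups compared called 2. The log2 alpha to beta difference passed on counts (0.64), as did the globin share on counts (-9.66 points) and without small RNA (-11.6 points). For the ratio the unadjusted p of the exact permutation test was 0.0159 on counts and on TPM alike. Run 2 precursors alone reversed combined against G-CSF (-1.51 for Hbb-bs, -1.54 for Hbb-bt, -1.49 for Hba-a1 and -1.35 for Hba-a2), and run 2 reversed precursor against marrow (2.32, 1.93, 2.18 and 2.04 in that order) and called 0 members.

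Whether the replicate numbers pair samples was not settled. Deviations of same-numbered libraries from their group means correlated at -0.06 to 0.17 in marrow (median 0.04) and -0.07 to -0.06 in precursors. Those of libraries with different numbers correlated at -0.17 to 0.17 and at 0.02 to 0.06. Deviations within a small group offset each other, so these correlations are tied together and cannot show that samples were unpaired. With the replicate block, Hba-a1 (0.014) and Hba-a2 (0.0095) with ZA and Hba-a1 in precursors with against without G-CSF (0.12) reversed, and genes called were 0 for ZA, 481 for combined, 0 for combined against G-CSF, 387 for combined against ZA and 3298 for precursor against marrow. The block changed no call of the 4 genes.

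Leaving out 1 library moved members called to 1 to 2 for G-CSF, 2 to 4 for combined, 0 to 4 for combined against ZA and 3 to 4 for with against without G-CSF, and gave log2 changes with ZA of -0.58 to 0.028 for Hbb-bt, -0.41 to 0.086 for Hba-a1 and -0.35 to 0.020 for Hba-a2, above 0 only without untreated replicate 1. Hba-a1 in precursors with against without G-CSF ran from -1.26 to 0.18, above 0 without combined replicate 1, combined replicate 2 or the ZA library. The log2 alpha to beta difference stayed between 0.58 and 0.74, with adjusted p from 0.0571 to 0.143. Genes called ran from 836 to 1706 for G-CSF, 0 to 23 for ZA, 296 to 1353 for combined, 0 to 18 for combined against G-CSF, 251 to 713 for combined against ZA, 1082 to 1967 for with against without G-CSF and 0 to 1 for precursors with against without G-CSF.

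Counts of genes called without a filter were 3206 for G-CSF, 634 for ZA, 2540 for combined, 557 for combined against G-CSF, 1587 for combined against ZA, 3362 for with against without G-CSF, and 1 and 2 in the precursor comparisons. DESeq2 called 130 for ZA, 1744 for combined, 183 for combined against G-CSF, 1015 for combined against ZA, and 62 and 25 in precursors. limma on TPM called 3106 for G-CSF, 16 for ZA, 6110 for combined, 39 for combined against G-CSF, 6591 for with against without G-CSF and 37 for precursors with against without G-CSF. The total without globin gave 1 for ZA and 0 for combined against G-CSF; only the groups compared gave 2 for ZA, 748 for combined and 5 for combined against G-CSF. Run 2 gave 16 for precursors with against without G-CSF and 0 for precursor against marrow. The main counts were 1746, 5, 1137, 1, 638, 2161, 0, 0 and 7797. Depth was not varied here; in marrow no globin gene ranked lower than 15 by TPM, and in run 1 precursors Hbb-bt ranked as low as 5474.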

Other observations

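Some run 2 libraries resembled a run 1 precursor library of the same treatment; these pairs were chosen after their values were seen, and whether each is the same material was not tested. Hbb-bs stood at 4672 TPM in run 1 combined replicate 3 and 4815 TPM in run 2 combined replicate 5, with small RNA at 32.1 and 32.2% of TPM. It stood at 413 TPM in run 1 combined replicate 1 and 400.3 TPM in run 2 combined replicate 4, with small RNA at 42.4 and 43.2%. The library labelled run 2 untreated marrow replicate 2 held 1037 TPM of Hbb-bs against 1227 in the run 1 untreated precursor library, and that labelled run 2 G-CSF marrow replicate 2 held 636 TPM against 672 in run 1 G-CSF precursor replicate 2.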
